A study of Mus musculus with 12 samples.

Results

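The genes described are the interferon-inducible catalytic subunits of the proteasome (Psmb8, Psmb9 and Psmb10), the constitutive subunits they replace (Psmb5, Psmb6 and Psmb7) and the subunits of the PA28 activators (Psme1, Psme2 and Psme3). They were chosen by gene symbol, and all 9 were found among the 46729 entries of the expression table. In mouse macrophages given interferon gamma (IFNγ), the 3 inducible subunits and Psme1 and Psme2 were at least 2-fold above untreated cells at every dose, while the 3 constitutive subunits and Psme3 stayed within 2-fold. At 0.2 U/ml this depended on the scaling for Psme1 and Psme2. On the log2 scale Psmb10 had 80.2% of its difference at 20 U/ml already at the lowest dose. The catalytic pairs began at different ratios. Transcripts of Psmb8 already outnumbered those of Psmb5 in untreated cells, whereas Psmb9 passed Psmb6 only at 2 U/ml. At 20 U/ml the ratios of the pairs were 4.17 to 5.63 times those in untreated cells.

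RNA was sequenced from macrophages grown from bone marrow of C57BL6 mice over 10 days, with interleukin-3 at first and with medium conditioned by L-929 cells as the source of colony-stimulating factor 1 throughout. Cells were left untreated or received IFNγ for 8 h at 0.2, 2 or 20 U/ml, which makes 4 groups, and the labels list 3 libraries for each. The 20 U dose is labelled with no volume and was taken as U/ml like the others. The authors' table holds 1 FPKM value per entry and group, a level corrected for transcript length and for how much was sequenced. No difference below has a replicate check, so none can be called larger than the spread between replicates, and an order of levels or doses could not be tested.

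The proteasome is a barrel-shaped protease that cuts ubiquitin-tagged proteins into peptides. Its cutting is done by beta subunits inside the barrel, and cells exposed to IFNγ make a second set of these, which are built into newly assembled particles called immunoproteasomes. Psmb8 takes the place of Psmb5, which carries the chymotrypsin-like activity, Psmb9 that of Psmb6, which carries the caspase-like activity, and Psmb10 that of Psmb7, which carries the trypsin-like activity. The exchange favours peptides with ends that fit the groove of MHC class I molecules. PA28, a ring of the products of Psme1 and Psme2, opens the barrel without ubiquitin, and Psme3 forms a separate ring found mostly in the nucleus.

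Psmb9 and Psmb8 lie in the MHC region of chromosome 17 beside the peptide transporter genes. On GRCm38, the assembly behind mm10, GENCODE M21 places Psmb9 at 34181987 to 34187764 on the minus strand and Psmb8 at 34197721 to 34201454 on the plus strand. Tap1 lies between them, starts at 34187553 and overlaps Psmb9 head to head by 212 nt. Psmb10 is on chromosome 8 (105935735 to 105938444), Psmb6 on chromosome 11 (70525367 to 70527858) and Psmb7 on chromosome 2 (38588036 to 38644087). Chromosome 14 carries Psmb5 (54614119 to 54618022) and, 960101 nt away, Psme1 (55578123 to 55581529), which is followed after 5912 nt by Psme2 (55587441 to 55591113). Psme3 is on chromosome 11 (101316213 to 101323537).

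The start regions of 6 members are shown because the inducible and constitutive sets moved apart. RefSeq windows on GRCm38.p6 were matched by symbol for 8 of the 9 members, all but Psmb7. Each is written 5′ to 3′ on the strand of its gene, from 250 bases before the start site to 30 after it. Capitals mark matches to any of 4 motifs, each searched on both strands: the interferon-stimulated response element (GAAA, any 2 bases, GAAA), the gamma-activated site (TTCNNNGAA), an NF-kappaB site (GGG, any 2 bases, TTTCC) and the antioxidant response element bound by NRF factors (TGACNNNGC).
Psmb8, chr17:34197945-34198224, plus strand: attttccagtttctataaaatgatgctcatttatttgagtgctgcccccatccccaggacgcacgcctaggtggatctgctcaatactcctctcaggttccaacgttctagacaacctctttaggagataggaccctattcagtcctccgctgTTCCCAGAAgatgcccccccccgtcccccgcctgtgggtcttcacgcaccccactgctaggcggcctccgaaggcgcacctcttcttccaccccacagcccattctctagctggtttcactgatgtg
Psmb9, chr17:34187301-34187580, minus strand: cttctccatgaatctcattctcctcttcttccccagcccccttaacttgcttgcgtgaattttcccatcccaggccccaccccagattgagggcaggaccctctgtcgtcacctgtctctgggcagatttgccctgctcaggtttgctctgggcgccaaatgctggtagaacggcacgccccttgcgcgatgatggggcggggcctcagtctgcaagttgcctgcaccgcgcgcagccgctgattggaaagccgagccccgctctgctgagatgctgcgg
Psmb10, chr8:105938363-105938642, minus strand: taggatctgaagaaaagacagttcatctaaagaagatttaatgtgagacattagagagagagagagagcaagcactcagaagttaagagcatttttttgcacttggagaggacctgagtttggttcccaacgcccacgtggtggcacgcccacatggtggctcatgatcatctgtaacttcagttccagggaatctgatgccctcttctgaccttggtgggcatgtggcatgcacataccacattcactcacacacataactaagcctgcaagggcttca
Psme1, chr14:55578244-55578523, plus strand: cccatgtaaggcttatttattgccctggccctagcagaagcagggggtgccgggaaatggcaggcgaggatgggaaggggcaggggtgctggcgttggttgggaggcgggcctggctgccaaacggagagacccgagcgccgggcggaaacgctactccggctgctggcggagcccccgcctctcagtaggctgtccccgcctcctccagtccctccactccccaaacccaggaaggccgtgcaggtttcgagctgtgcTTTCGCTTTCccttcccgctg
Psmb5, chr14:54617966-54618245, minus strand: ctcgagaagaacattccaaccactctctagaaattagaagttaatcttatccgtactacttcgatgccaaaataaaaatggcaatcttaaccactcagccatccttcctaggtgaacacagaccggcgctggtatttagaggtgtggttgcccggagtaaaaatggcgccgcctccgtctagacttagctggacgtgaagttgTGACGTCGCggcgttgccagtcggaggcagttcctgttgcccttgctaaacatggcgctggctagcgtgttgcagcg
Psmb6, chr11:70525107-70525386, plus strand: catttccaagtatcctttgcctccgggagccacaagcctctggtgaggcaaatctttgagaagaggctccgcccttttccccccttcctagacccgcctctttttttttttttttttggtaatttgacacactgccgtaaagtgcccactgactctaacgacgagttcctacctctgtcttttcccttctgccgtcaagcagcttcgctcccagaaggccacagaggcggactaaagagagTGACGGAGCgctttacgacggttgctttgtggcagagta
Psmb8 held a gamma-activated site 97 bases before its start site, and Psme1 an interferon-stimulated response element 9 bases after its start site, on the opposite strand. Over all 32851 windows of this length, the first motif was found in 7.83% and the second in 3.28%. Psmb5 and Psmb6 each held an antioxidant response element, 47 and 9 bases before the start site, a motif found in 11.5% of windows. The windows of Psmb9, Psmb10, Psme2 and Psme3 held none of these letters, and the NF-kappaB motif, found in 1.54% of windows, was in none of the 8 members. The window of Psmb9 shares 275 bases with that of Tap1, read from the other strand. GENCODE M21 places the first base of Psmb8, Psmb9, Psmb10, Psmb5, Psme1 and Psme2 upstream of the RefSeq start sites used here.

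Among the inducible catalytic subunits, Psmb8 went from 211 FPKM in untreated cells to 605 at the 0.2 U/ml dose, 819 at the 2 U/ml dose and 1176 at the 20 U/ml dose. Psmb9 was at 143, 413, 585 and 808 FPKM in the same order. Psmb10 was at 146, 579, 628 and 814 FPKM. Each of the 3 was lowest in untreated cells and highest at 20 U/ml, and within a group the highest of the 3 was 1.40 to 1.47 times the lowest. Against untreated cells, the log2 ratio of (FPKM + 1) was 1.51 for Psmb8, 1.52 for Psmb9 and 1.98 for Psmb10 at 0.2 U/ml. At 20 U/ml the ratios had drawn together, to 2.47 for Psmb8, 2.49 for Psmb9 and 2.47 for Psmb10.

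Among the constitutive catalytic subunits, Psmb5 was at 101 FPKM in the untreated group and 137, 113 and 127 from the lowest dose to the highest. Psmb7 was at 191, 255, 225 and 254 FPKM. Psmb6 was at 544, 1009, 536 and 544 FPKM, so that its values at 2 and 20 U/ml lay close to that of untreated cells and the value at 0.2 U/ml stood alone. At 20 U/ml the log2 ratios to untreated were 0.32 for Psmb5, 0.41 for Psmb7 and 0.00 for Psmb6. All 3 were expressed at every dose. Their FPKM was no lower at 20 U/ml than in untreated cells. The median log2 ratio of Psma1 to Psma7, the subunits of the outer rings, was itself 0.81 at this dose. Relative to it, the ratios were -0.49 for Psmb5, -0.40 for Psmb7 and -0.81 for Psmb6. With upper-quartile scaling they were 0.17, 0.27 and -0.14, and with quantile normalization 0.17, 0.26 and 0.00. Their direction thus depends on the scale, and Psmb5 and Psmb7 were negative only relative to the outer-ring subunits. Psmb5 shares its entry with the microRNA gene Mir686, which lies in its exons, and the reads of both are counted together.

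**Figure D1:**
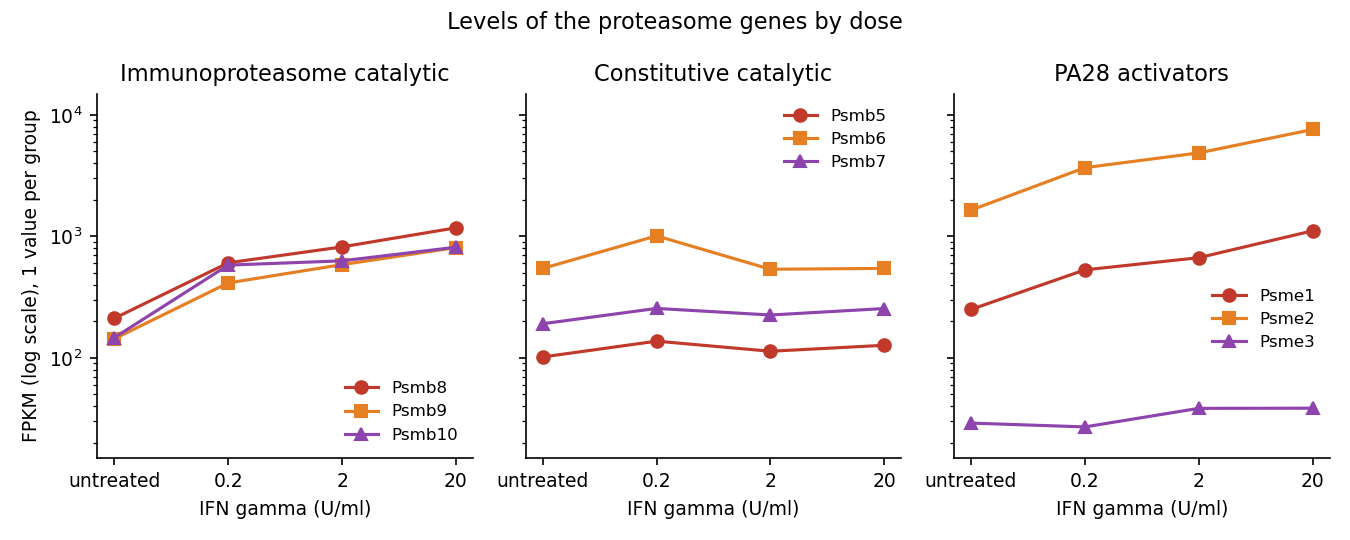
FPKM of the 9 genes (log axis, 1 value per group) in untreated cells and at 0.2, 2 and 20 U/ml IFNγ. Psmb8, Psmb9, Psmb10, Psme1 and Psme2 climb with dose, and the constitutive subunits and Psme3 stay flat apart from Psmb6 at 0.2 U/ml (1009 FPKM).

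A 2-fold difference on the log2 scale was used as the rule of size, since no test could be made. By this rule, 5 of the 9 members were higher and 0 lower at 0.2, at 2 and at 20 U/ml, and on this scale they were the same 5 genes each time. At 0.2 U/ml the count was 4 with upper-quartile scaling, without Psme1, and 3 with quantile normalization or relative to Psma1 to Psma7, without Psme1 and Psme2. Of all 11580 entries compared, 5.23% were higher and 0.328% lower at 0.2 U/ml, 2.50% and 0.760% at 2 U/ml, and 6.51% and 2.94% at 20 U/ml. The member nearest the rule from inside was Psme1 at 0.2 U/ml (1.08) and from outside Psmb6 at the same dose (0.89). The 3 comparisons share the 1 untreated value of each gene. Of the 5 higher members, Psmb10 ranked first at 0.2 U/ml (127th of 11580) and 2 U/ml (70th), and Psmb9 at 20 U/ml (182nd). Psme1 ranked last of them at each dose, at 527th, 159th and 234th.

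The balance within each catalytic pair was then read from the ratio of FPKM in the same group, which compares levels per length. Psmb8 to Psmb5 stood at 2.08 without IFNγ, then 4.42, 7.23 and 9.28 with increasing dose. Psmb10 to Psmb7 stood at 0.768, 2.27, 2.79 and 3.20. Psmb9 to Psmb6 stood at 0.263, 0.410, 1.09 and 1.48. As shares of the pair, the inducible gene held 67.5% of Psmb8 and Psmb5, 43.4% of Psmb10 and Psmb7 and 20.8% of Psmb9 and Psmb6 in untreated cells. At 20 U/ml these shares were 90.3%, 76.2% and 59.7%. The order of the 3 pairs was the same in all 4 groups.

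The pairs differed more in where they began than in how far they moved. Relative to untreated cells, the ratio at 20 U/ml was 4.46 times as high for Psmb8 to Psmb5, 5.63 times for Psmb9 to Psmb6 and 4.17 times for Psmb10 to Psmb7. At 0.2 U/ml the factors were 2.12, 1.56 and 2.96. The small factor of the Psmb9 pair at that dose went with the high value of Psmb6, the denominator. At 2 U/ml, where Psmb6 was back at 536 FPKM, the factor was 4.15. These are ratios of transcripts, and the composition of assembled particles was not measured.

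**Figure D2:**
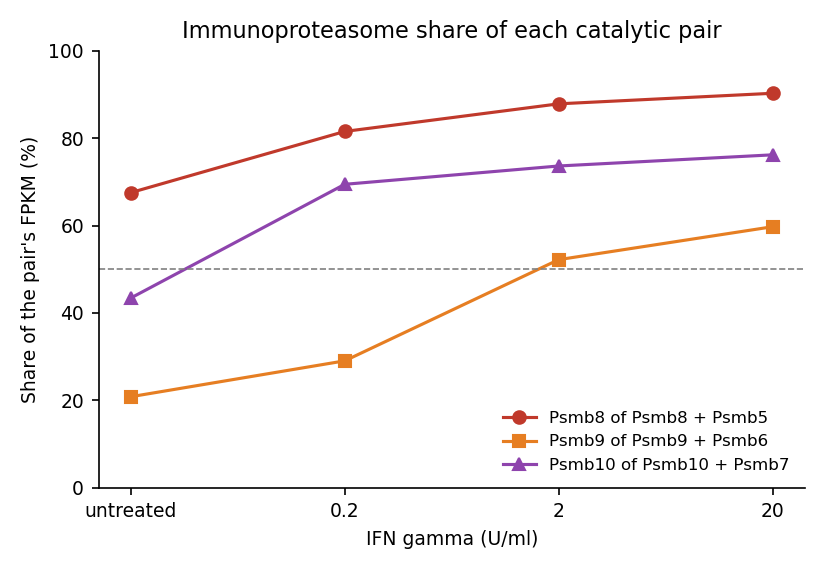
Share of each catalytic pair's FPKM held by the inducible gene (%, 1 value per group), with a dashed line at equal amounts. The Psmb8 pair runs from 67.5% to 90.3%, the Psmb10 pair from 43.4% to 76.2% and the Psmb9 pair from 20.8% to 59.7%, which crosses the line between 0.2 and 2 U/ml.

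The summed FPKM of each pair was higher with IFNγ. The sum of Psmb8 and Psmb5 was 313 FPKM in untreated cells and 1302 at 20 U/ml, that of Psmb9 and Psmb6 687 and 1352, and that of Psmb10 and Psmb7 337 and 1068. As a yardstick, the median FPKM of the 7 outer-ring subunits Psma1 to Psma7 was 217 FPKM in the untreated group and 257, 231 and 339 from the lowest dose to the highest. Against this median, Psmb8 stood at 0.974 in untreated cells and 3.55 at 2 U/ml, and at 3.47 at 20 U/ml. Psmb9 went from 0.660 to 2.54 and 2.39, and Psmb10 from 0.675 to 2.73 and 2.40. By this measure all 3 were no higher at 20 than at 2 U/ml. Relative to the median log2 ratio of the same 7 genes from 2 to 20 U/ml, they were higher by 0.19, 0.13 and 0.04. With the median log2 ratio of the 7 genes to untreated cells subtracted, Psmb8 was at 1.65 at 2 U/ml and 1.66 at 20 U/ml. Psmb9 was then at 1.72 and 1.68, and Psmb10 at 1.79 and 1.66. The direction of this last step thus depends on the yardstick.

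The PA28 genes divided into an inducible couple and Psme3. Psme2 was the most abundant member in every group, at 1643 FPKM without IFNγ, then 3676, 4863 and 7580 with increasing dose. Psme1, its partner in the ring, was at 250, 530, 667 and 1110 FPKM. Psme3 was the least abundant, at 29.0, 27.0, 38.3 and 38.4 FPKM. The log2 ratio at 20 U/ml was 2.21 for Psme2, 2.15 for Psme1 and 0.40 for Psme3. Psme1 and Psme2 moved in step, with Psme2 at 6.57 times Psme1 in untreated cells and 6.94, 7.29 and 6.83 times at the 3 doses. By contrast Psme1 was 8.62 times Psme3 in untreated cells and 28.9 times at 20 U/ml.

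The level of Psme2 carries a limit of its own. The gene Psme2b on chromosome 11 (48945354 to 48946190) is 99.4% identical to the longest Psme2 transcript over 794 aligned nt, so reads of the 2 cannot be divided with certainty. The entry that merges Psme2b with 9930111J21Rik1 was at 7.27, 20.2, 11.5 and 16.2 FPKM in the same order of groups. Antisense and overlapping genes touch other members, and the sources used here do not say that counting used strand. Gm20496, annotated antisense to Psmb8, shares 498 nt of its exons, or 14.7%, and stood at 61.4 FPKM without IFNγ and 371 at 20 U/ml. Tap1 shares 5.79% of the exons of Psmb9, Nek6 shares 11.8% of those of Psmb7, and Emc9 shares 0.634% of those of Psme1.

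The inducible members had a larger share of their difference at the low doses than the median entry higher at 20 U/ml. Psmb10 showed 80.2% of its log2 ratio at 20 U/ml already at 0.2 U/ml, Psmb8 61.3%, Psmb9 61.2%, Psme2 52.7% and Psme1 50.3%. Over the 754 entries higher at 20 U/ml, the median was 14.6% and the upper quartile 28.3%. These entries were picked by their ratio at 20 U/ml, which is also the denominator of the share, and were not matched to the members for level. How far this lowers their median was not tested. At 2 U/ml the members stood between 65.8% (Psme1) and 84.9% (Psmb10), beside a median of 46.1% and an upper quartile of 59.7%. These shares depended on the scale. With quantile normalization those at 0.2 U/ml were 66.3% for Psmb10, 47.7% for Psmb9, 46.5% for Psmb8, 34.8% for Psme1 and 28.6% for Psme2, beside a median of 10.7% over 658 entries. As differences of FPKM, chosen after seeing the data, they were 64.9%, 40.6%, 40.8%, 32.5% and 34.2%, beside a median of 6.15%. From 0.2 to 2 U/ml the step was 0.12 for Psmb10, 0.44 for Psmb8 and 0.50 for Psmb9 on the log2 scale. From 2 to 20 U/ml it was 0.37, 0.52 and 0.46. By the rule of size 0 of 9 members were higher or lower in either step, where 1.51% and 6.26% of all entries were higher and lower in the first and 2.90% and 1.11% in the second.

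The values at 0.2 U/ml need to be read beside others from the same group. The summed FPKM of all entries was 1025967 at this dose and 769698 in untreated cells. Among 769 entries of single genes with a median transcript under 1000 nt and a mean of at least 100 FPKM, a class that holds Psmb9, Psmb10, Psmb6, Psme1 and Psme2, the median log2 ratio was 0.19 and 11.2% were higher by the rule of size. Psmb6 (0.89), Psmd9 (1.23), Psmb4 (1.08), the entry that merges Psmd1 with Armc9 and Gm21972 (0.85) and Psmd13 (0.68) were high at this dose. These entries lay between -0.34 and 0.18 at 20 U/ml. Other proteasome entries high at this dose lay above that range at 20 U/ml, among them Psmc5 (0.76, then 0.42), Psma5 (0.69, then 1.16) and Psmd7 (0.65, then 0.69). With the median of entries of like length subtracted, an alternative chosen after seeing the data, the ratios were 1.5 for Psmb8, 1.48 for Psmb9 and 1.94 for Psmb10. Relative to the median of Psma1 to Psma7 they were 1.19, 1.20 and 1.65, and those of Psme1 and Psme2 were 0.76 and 0.84, under the rule of size.

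**Figure D3:**
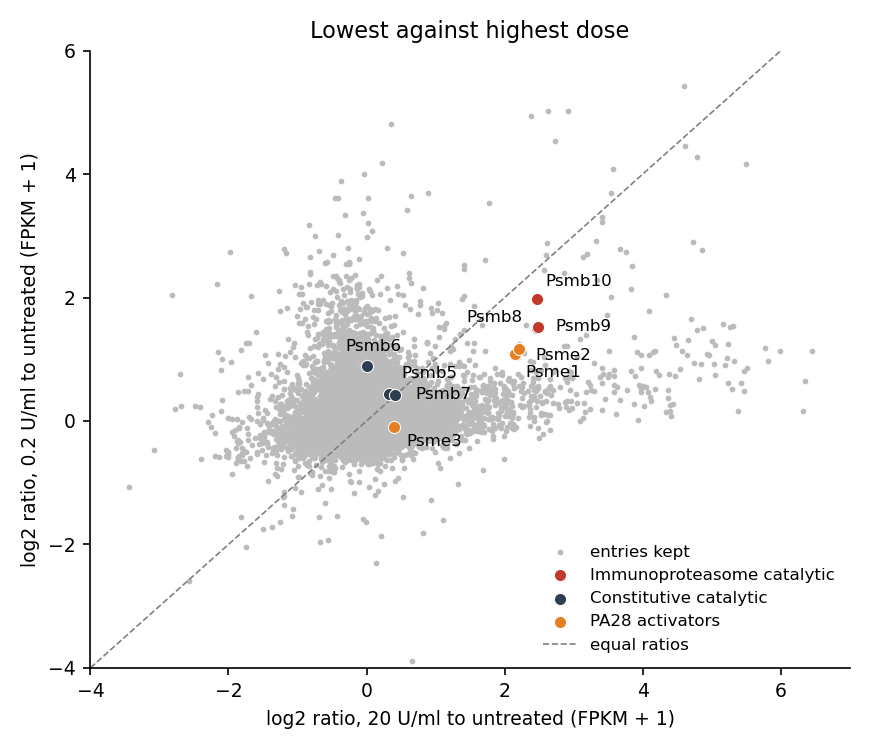
Log2 ratio of (FPKM + 1) to untreated cells at 0.2 U/ml against that at 20 U/ml for the 11580 entries compared (grey) and the 9 members (coloured). Psmb10 (1.98 at 0.2 U/ml, 2.47 at 20 U/ml) lies closest to the dashed line of equal ratios among the inducible members, and Psmb6 (0.89 and 0.00) lies above it.

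The remaining proteasome genes were read by the same rule. Of 38 entries of the outer and inner rings, the regulatory cap and the assembly chaperones outside the 9 members, 2 were higher and 0 lower at 20 U/ml, with a median log2 ratio of 0.31 and a range from -0.34 to 1.16. The median of all 11580 entries was 0.01, and 6.51% of them were higher, so the count is near the background. It was 1 with upper-quartile scaling and 0 with quantile normalization or relative to Psma1 to Psma7. At 2 U/ml 0 of 38 passed in either direction (median 0.09), and at 0.2 U/ml 2 were higher and 0 lower (median 0.29), with the same counts under those scalings and 5.23% of all entries higher.

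The 2 entries past the rule at 20 U/ml were outer-ring subunits. Psma5 was at 91.1 FPKM in the untreated group and 147, 149 and 205 from the lowest dose to the highest. Psma4 was at 169, 212, 209 and 354 FPKM. Among 8 outer-ring genes the median log2 ratio at 20 U/ml was 0.70, and the lowest was Psma8, the testis form of Psma7, at -0.10 and about 1 FPKM in every group. Among the 4 non-catalytic beta subunits the median was 0.24, led by Psmb2 (0.69). The 6 ATPases of the cap lay between 0.26 and 0.42, led by Psmc5. Among its 13 other subunits the median was 0.23, with Psmd12 (0.81) and Psmd7 (0.69) furthest from 0.

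Assembly chaperones included the gene nearest to the rule. Pomp, the maturation protein that immunoproteasome assembly relies on, was at 660 FPKM without IFNγ, then 807, 1266 and 1313 with increasing dose, a log2 ratio of 0.99. Of the 7 chaperone entries 0 passed at 20 U/ml, near the background of 6.51% of all entries higher. Their median was 0.03, and Psmg4 (0.57) came next after Pomp. Psmd9 was at 64.5, 153, 95.7 and 50.8 FPKM. Psmb11, the catalytic subunit known from the cortex of the thymus, had a mean under 1 FPKM and was left out of ratios, with 0.318, 1.90, 0.395 and 0.250 FPKM in the same order of groups.

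**Figure D4:**
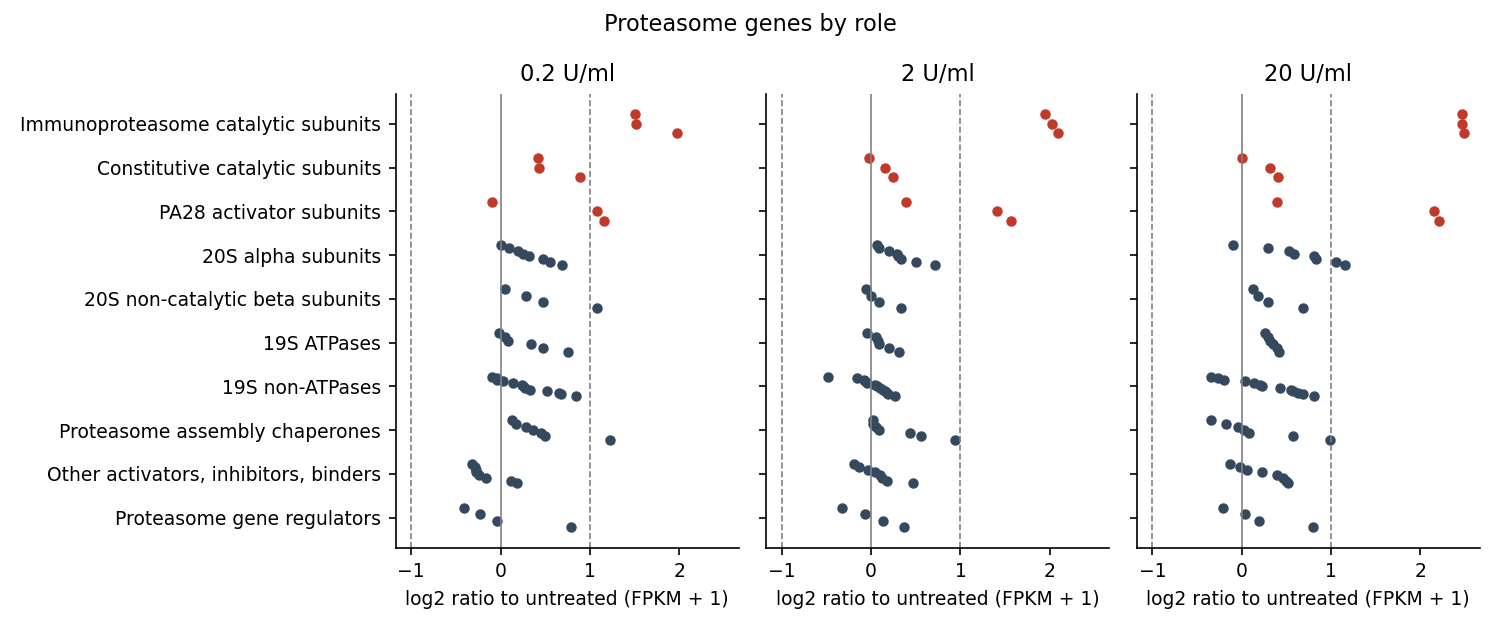
Log2 ratio of (FPKM + 1) to untreated cells at 0.2, 2 and 20 U/ml for proteasome genes grouped by role, 1 point per entry, with dashed lines at the rule of size (1 and -1) and members in red. At 20 U/ml the 3 inducible catalytic subunits (2.47 to 2.49) and Psme1 and Psme2 (2.15 and 2.21) lie to the right of the other groups, whose highest point is Psma5 (1.16).

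Genes that act around the proteasome were read in the same way at 20 U/ml, where 6.51% of all entries were higher and 2.94% lower. In lists this short, a count of 0 past the rule is near that background. None of 8 entries of other activators, inhibitors and binding proteins passed the rule (median 0.31), led by AI314180 (0.52), the mouse Ecm29 gene, and Psme4 (0.50), an activator of the nuclear particle. None of 4 entries of regulators passed (median 0.11). Nfe2l1, the transcription factor that raises constitutive proteasome genes when the particle is inhibited, stood at 71.1 FPKM without IFNγ and 81.2 at 20 U/ml, and at 124 at 0.2 U/ml. Ddi2, the protease that activates Nfe2l1, shares an entry with Rsc1a1 and was at 9.87 and 17.9 FPKM in untreated cells and at 20 U/ml.

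Genes that feed the proteasome or trim its products were read against the 6.51% of all entries higher at 20 U/ml, with no test of the lists. Among 10 ubiquitin and shuttle entries 1 was higher and 0 lower (median 0.21). It was Ubd, which encodes the ubiquitin-like protein FAT10, at 0.0209 FPKM in the untreated group and 0.285, 1.26 and 6.96 from the lowest dose to the highest. Ubd passed the filter on low values only through its value at 20 U/ml, so its place in this count is no independent result. Its untreated value was near 0. Among 8 entries of peptidases 2 were higher and 0 lower (median 0.22). Lap3, a cytosolic aminopeptidase, was at 18.6, 16.6, 31.2 and 78.7 FPKM. Erap1, which trims peptides in the endoplasmic reticulum, was at 8.21, 13.5, 26.2 and 25.7 FPKM. Lap3 at 0.2 U/ml was thus no higher than in untreated cells, at a dose where Psmb8, Psmb9 and Psmb10 were past the rule.

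The neighbours of Psmb8 and Psmb9 and known regulators of the class I pathway were read beside them. Tap1 was at 27.7 FPKM without IFNγ, then 62.3, 183 and 325 with increasing dose, and Tap2 at 67.0, 110, 220 and 380 FPKM. The log2 ratio of Tap2 at 20 U/ml was 2.49, the same as that of Psmb9. Tap1 overlaps the start of Psmb9, and its log2 ratio at 20 U/ml was 3.51 beside 2.49 for Psmb9. Its share of that ratio at the lower doses was smaller, with 1.14 at 0.2 U/ml beside 1.52 for Psmb9. The transcription factor Irf1 was at log2 ratios of 1.36, 3.07 and 3.87, and Nlrc5, the activator of class I genes, at 1.39, 2.29 and 3.17.

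The genes whose dose pattern was most like that of the inducible subunits were sought by the Euclidean distance over the 3 log2 ratios to untreated cells, among 10679 single-gene entries outside the members. Psmb9 was closer to Psmb8 (0.075) than any of these entries, and Psmb10 was at 0.485 from Psmb8. The nearest entries to Psmb8 were its antisense gene Gm20496 (0.499), H2-T23 (0.548), an MHC class Ib gene, Gm12216 (0.587), Nmi (0.646) and the cyclin gene Ccnd2 (0.651). Those nearest to Psmb9 were Gm20496 (0.489), H2-T23 (0.524), Tapbpl (0.627), which edits the peptides of class I molecules, Gm12216 (0.630) and Ccnd2 (0.645). For Psmb10 the nearest entries lay further off, with H2-T23 (0.878), Ccnd2 (0.915), Tapbpl (0.919), Nlrc5 (0.936) and Gm20496 (0.940). The median distance of the entries searched was 3.48 from Psmb8 and 3.78 from Psmb10.

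Markers of the labelled cell type were present and those of most other types were near 0. Macrophage markers such as Csf1r (349 FPKM in untreated cells, 418 at 20 U/ml) and Adgre1 (151 and 188) were expressed in every group, with a sum over 9 of the 10 markers between 2516 and 3150 FPKM. Single markers differed in direction: at 20 U/ml Fcgr1 was at a log2 ratio of 3.39, Mrc1 at -1.84, Cd68 at -0.27 and Cd14 at -0.24. The tenth, Lyz2, was listed at 0 in 3 groups and at 7449 FPKM at 20 U/ml. Lymphoid and dendritic cells are known to carry immunoproteasomes without IFNγ, so their markers were read beside the untreated levels of Psmb8, Psmb9 and Psmb10. In untreated cells the summed FPKM was 1.47 over 5 B cell markers, 0.103 over 7 T and NK cell markers and 2.00 over 7 dendritic cell markers, with Cd3e listed at 0. Over the 4 groups the sums ranged from 1.41 to 3.00, from 0.0424 to 0.263 and from 2.00 to 48.4. The last rests on the merged entry of Clec1b and Clec9a, at 1.27 FPKM in untreated cells and 47.1 at 20 U/ml. Neutrophil markers summed to 16.7 to 34.3 FPKM, mostly S100a8, and stromal and epithelial markers to at most 0.215 FPKM. The dendritic and neutrophil sums were highest at 20 U/ml, as were the inducible members, and their part in those results was not tested. In bulk samples, more cells with a transcript and more transcript per cell cannot be told apart.

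A second table from the authors contrasts treated with untreated cells by Cuffdiff, names no dose, and puts the inducible members in the opposite direction. In the authors' deposited table the log2 fold change of Psmb8, treated over untreated, was -2.17 with a Cuffdiff q-value of 9.95e-05. The authors' deposited table also lists Psmb9 (-1.68), Psmb10 (-1.53), Psme1 (-1.03) and Psme2 (-2.17) as lower, each at a q-value of at most 0.05. Psmb6 was higher in the authors' deposited table (0.60), and Psmb5 (-0.61), Psmb7 (-0.29) and Psme3 (0.14) did not pass that threshold. So 5 of 9 members were lower and 1 higher in the authors' deposited table, where 33.8% of 12854 tested entries were lower and 35.1% higher. Of 38 other subunits and chaperones tested in the authors' deposited table, 21 were lower and 10 higher, with a median of -0.31. The sources used here do not give which samples the authors' deposited table compares, so the 2 tables cannot be set against each other by dose. Its values for other interferon-inducible genes are not given here, so the opposite direction cannot be read as particular to the members.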

How the data were processed

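The submitters' processing notes list the mouse build mm10 and, with no role or order, Cuffdiff 2.1.1, Cufflinks 2.1.1 and TopHat2 2.1.1. The deposited table by dose holds FPKM, per the file headers; the untreated column names no unit and was read as FPKM from its range. Each group has 1 value; the sources used here do not say whether it combines the 3 libraries, and the depth is unknown. From the other deposited table, the authors' log2 fold change and q-value (an adjusted p-value) were used; its 2 columns of levels match no labelled group and were not used.

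Entries with a mean of at least 1 FPKM and no group at 0 were compared (11580 of 46729; 272 were left out for a 0), 695 of which merge genes. Ratios are differences of log2(FPKM + 1), which understates differences of low genes, and the rule of size was a log2 ratio of 1. Pair ratios used FPKM with no pseudocount. The planned limma test on libraries could not be made. Members and lists were chosen with earlier results of these data known. Named genes were the 9 members, in each list up to 4 entries past the rule or the 1 or 2 largest, 5 neighbours and regulators (1 is not reported here), and the 5 nearest patterns to each inducible subunit; Psmb11, Psma8, Psmd1, Psmd13, Nfe2l1, the overlapping genes and the markers named were added after their values were seen. Positions came from GENCODE M21 on GRCm38, promoter windows from RefSeq. Python 3.11.15, pandas 2.3.3 and Biopython 1.88 were used, and the code for ratios, scalings and distances was tested on simulated data. Alternatives were pseudocounts, filters, scalings and sizes of the rule.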

Additional observations from a re-analysis of the deposited data

How the results depend on the processing

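No paired analysis was possible because the table holds 1 value per group, and leaving out a replicate was not possible for the same reason. At 20 U/ml the count of 5 higher members held under every alternative run. At 0.2 U/ml it was 3 with quantile normalization or relative to the median 20S alpha subunit, and 1 with a 3-fold rule. With a 1.5-fold rule it was 6 at that dose, with the constitutive Psmb6 (0.89) among them. At 2 U/ml it was 3 with a 3-fold rule. The log2 ratio of Psme1 at 0.2 U/ml was 0.97 with upper-quartile scaling, 0.72 with quantile normalization and 0.76 relative to the alpha subunits, and that of Psme2 was 0.61 with quantile normalization and 0.84 relative to the alpha subunits. With a 1.5-fold rule, 1 member was lower from 0.2 to 2 U/ml, Psmb6 (-0.91). From 2 to 20 U/ml 2 were higher, Psme1 (0.73) and Psme2 (0.64). The shares of all entries past the 1.5-fold and 3-fold rules were not counted, so member counts under these rules cannot be set against a background. Of the log2 ratios of members under alternatives, 265 kept their side of the rule and the 5 given for Psme1 and Psme2 did not. Of the shares of the difference at 20 U/ml, 5 moved by over 1.5 times, all at 0.2 U/ml, and 65 did not. The 12 pair ratios moved by less than 1.5 times with a pseudocount of 1, the only alternative run on them. All genes of the pairs were at 101 FPKM or more, so this pseudocount could hardly move the ratios.

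Of the 38 other proteasome entries, the count higher was 1 with upper-quartile scaling and 0 with quantile normalization or relative to the alpha subunits, at 0.2 and at 20 U/ml alike, and 4 were lower at 20 U/ml relative to the alpha subunits. At 2 U/ml 1 was higher with quantile normalization or with the length trend removed, an alternative chosen after seeing the data. Between doses, quantile normalization gave 1 higher from 0.2 to 2 U/ml and 1 lower from 2 to 20 U/ml, as did the alpha subunits in the second.

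Counts of lower entries over the whole table depended on low values: 71 and 76 against 38 at 0.2 U/ml with pseudocounts of 0.1 and 0.01, 174 and 192 against 88 at 2 U/ml, and 539 and 572 against 340 at 20 U/ml. With entries at 0 kept they were 106 and 154 at 0.2 and 2 U/ml, with a mean of at least 5 FPKM 24 and 58, and without RNAs under 200 nt 18 at 0.2 U/ml. Between doses, 275 and 288 against 175 were higher in the first step, and 248 and 276, or 203 with entries at 0 kept, against 128 were lower in the second. Upper-quartile scaling shifted the median of all entries by -0.13 at 20 U/ml and gave 629 higher and 473 lower. The causes were not tested, and no difference can be set against replicate spread.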
